A study of Bos taurus with 6 samples.

Results

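The genes described here are DKK1 and 9 other antagonists of Wnt signaling, namely DKK2, DKK3, SFRP1, SFRP2, SFRP5, FRZB, WIF1, KREMEN1 and NOTUM. They were taken by symbol and Entrez identifier from the deposited tables of bovine embryonic stem cells (bESCs) of the line F7, and all 10 were found among the 19163 genes of the count table. They were chosen by their role as antagonists and with their counts in the 2 cultures compared already known, so the difference between these cultures is given for them as a description, without a p value. F7 is 1 line derived from an in vitro fertilized Holstein Friesian embryo. It was grown on feeder layers of mouse embryonic fibroblasts. These were either alive but arrested in division by mitomycin C (MC-F7, labelled 1M) or dead after fixation with methanol (MT-F7), and the deposited description gives 15 passages for both. Each group had 3 RNA-seq libraries. Both cultures received FGF and IWR1, an inhibitor of canonical Wnt signaling that acts by stabilizing Axin. The medium was changed every day for MC-F7 and every other day for MT-F7, and the effect of this schedule cannot be told apart from that of the feeder. In both groups the dissociated cells were set on gelatin and the floating cells were collected.

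Wnt proteins are secreted lipid-modified ligands that bind a Frizzled receptor together with LRP5 or LRP6, and canonical signaling then spares beta-catenin from destruction so that it can act with TCF/LEF factors on target genes. The antagonists interrupt this outside the cell or at its surface. Dickkopf proteins such as DKK1 and DKK2 bind LRP5 and LRP6 and thereby block the co-receptor, and KREMEN1 is a transmembrane receptor for them, while DKK3 is a divergent member of the family. Secreted frizzled-related proteins (SFRP1, SFRP2, SFRP5 and FRZB) carry a Frizzled-like cysteine-rich domain and bind Wnt ligands, as does WIF1 through another domain. NOTUM is a secreted enzyme that removes the lipid from Wnt proteins. DKK1 is best known for its need in the formation of the head of the early embryo, and it is also a target of Wnt signaling.

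The libraries held between 21958386 and 24933430 counts on genes. Levels are given as counts per 1000000 counts after TMM normalization (CPM, mean ± SD, n = 3 libraries). A library with up to 3 counts of a gene was not taken to show its presence, and 3 counts correspond to 0.116 to 0.14 CPM. Such limits cover counting error only. The methods of the study speak of technical replicates for its data in general and do not name separate cultures as the source of the 3 libraries of a group. SDs and p values therefore measure only the spread between these libraries, which may be technical. Of 8 listed pluripotency markers, SOX2 and LIN28B were not matched in the count table. Of the other 6, POU5F1 and NANOG among them, none was at 0 in any library. Their summed level ran from 945 to 1576 CPM in MC-F7 and from 580 to 628 CPM in MT-F7. Most of this sum was POU5F1, at 1196 ± 330 CPM in MC-F7 and 522 ± 35.6 CPM in MT-F7. By the adjusted test described below, 5 of the 6 fell in MT-F7, beside 11.3% of all tested genes. In bulk RNA, fewer cells of a type and less RNA per cell cannot be told apart.

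DKK1 (Entrez gene 504445) had no read in MC-F7 and was detected in every MT-F7 library. Its counts were 0, 0 and 0 in the MC-F7 libraries and 162, 267 and 132 in the MT-F7 libraries. The groups did not overlap, and replicate 2 was the highest of the MT-F7 libraries. The MT-F7 level was 7.46 ± 2.51 CPM, at least 56.3-fold higher than in MC-F7, where a count of 0 was set to the 3 counts it allows in each library. This bound is one of group means, and without MT-F7 replicate 2 it was 45.5-fold. The lowest MT-F7 library was 39.95-fold above the highest such limit of an MC-F7 library. The MT-F7 libraries differed from each other more than counting alone would give, with a coefficient of variation of 33.6% beside 7.31% from counting. Of 493 genes with 0 counts in every MC-F7 library and at least 1 count in MT-F7, DKK1 had the most MT-F7 counts, 561 in sum, and the next gene had 73. In 13 of these 493 genes every MT-F7 library held more than 3 counts. The gap between DKK1 and the next gene depends on the demand for 0 counts in every MC-F7 library. Genes with a few reads there, but no more than the 3 allowed above, were left out of this ranking. HMX1, described below, is such a gene, and its lowest MT-F7 library held 113 reads. The gap therefore does not set DKK1 apart from all genes without a shown presence in MC-F7.

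The other Dickkopf genes had different levels. DKK3 (506627) was well expressed in both cultures, with 1086, 1254 and 868 counts (MC-F7) against 2117, 2580 and 2006 (MT-F7). Its level was 46.9 ± 5.79 CPM in MC-F7 and 89.7 ± 8.61 CPM in MT-F7, without overlap, and the log2 fold change of MT-F7 over MC-F7 (log2FC) was 0.94 (standard error, SE, 0.155). DKK2 (541161) had 1, 0 and 0 counts (MC-F7) against 3, 0 and 3 (MT-F7), so no library exceeded 3 counts and no difference was detectable at this depth. KREMEN1 (524357), the Dickkopf receptor, was low in both groups, which overlapped, with 10, 10 and 6 counts (MC-F7) against 8, 10 and 10 (MT-F7). These corresponded to 0.379 ± 0.0865 and 0.377 ± 0.0536 CPM, and the gene was too low to be fitted.

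**Figure D1:**
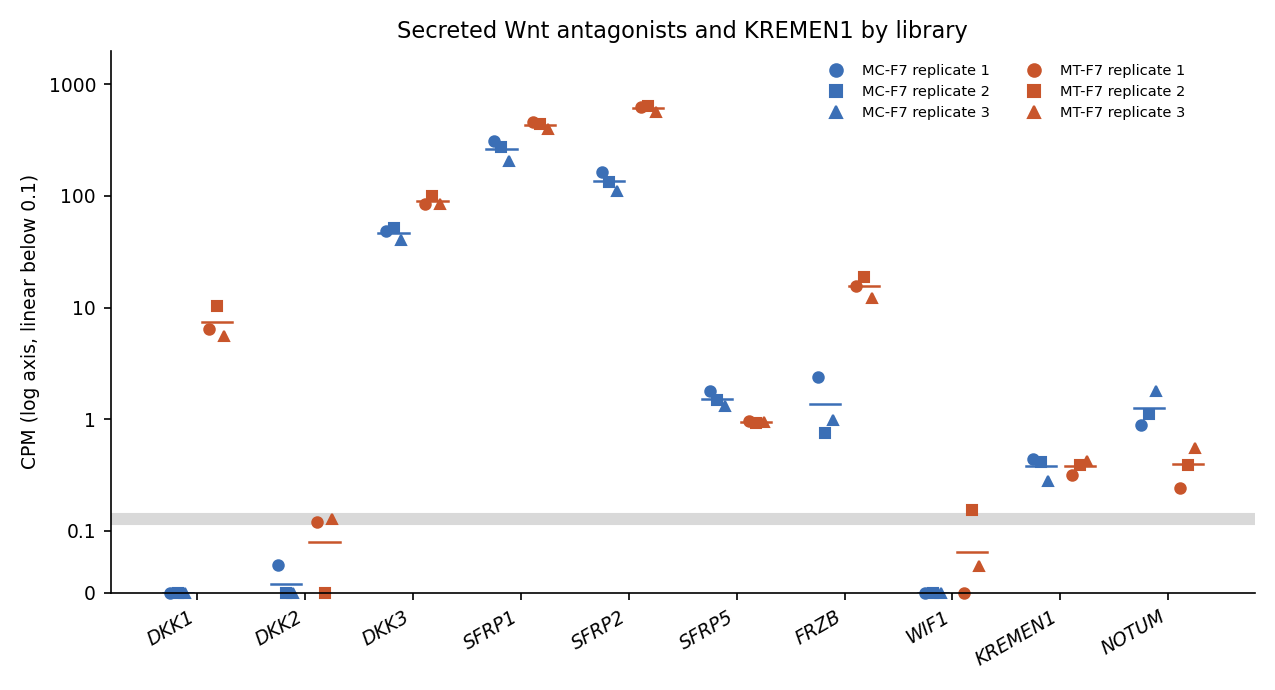
CPM of the 10 genes in each of the 6 libraries, on a log axis that is linear below 0.1 CPM, with blue marks for MC-F7, orange marks for MT-F7, a marker shape for each replicate and a short line at each group mean. The grey band marks 3 counts, 0.116 to 0.14 CPM, under which all 3 MC-F7 values of DKK1 lie at 0, while its MT-F7 values lie between 5.6 and 10.3 CPM.

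SFRP1 and SFRP2 were the most abundant of the 10 genes. SFRP2 (510821) had 3703, 3212 and 2370 counts (MC-F7) against 15661, 16631 and 13380 (MT-F7). All MT-F7 libraries lay far above the MC-F7 libraries. SFRP2 was at 136 ± 26.6 CPM in MC-F7 and 611 ± 38.7 CPM in MT-F7, a log2FC of 2.17 (SE 0.177). SFRP1 (282068) had 7055, 6587 and 4430 counts (MC-F7) against 11483, 11387 and 9450 (MT-F7), again without overlap. Its level was 264 ± 53.0 CPM in MC-F7 and 433 ± 28.8 CPM in MT-F7, with a smaller log2FC of 0.71 (SE 0.173). For both genes the MC-F7 libraries were spread more widely than the MT-F7 libraries. The coefficient of variation was 19.6% and 6.32% for SFRP2 and 20.1% and 6.64% for SFRP1, in MC-F7 and MT-F7 respectively, and MC-F7 replicate 3 was the lowest library for both.

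FRZB (281170), also known as SFRP3, was low in MC-F7 with 54, 18 and 21 counts and had 394, 487 and 284 counts in MT-F7. Its groups did not overlap, although MC-F7 replicate 1 stood above the other MC-F7 libraries. The level was 1.37 ± 0.888 CPM in MC-F7 and 15.5 ± 3.38 CPM in MT-F7, a log2FC of 3.50 (SE 0.356), and 4.17 without MC-F7 replicate 1. SFRP5 (282069) was the frizzled-related gene with the opposite order. It had 40, 36 and 28 counts (MC-F7) against 24, 24 and 22 (MT-F7). The lowest MC-F7 library was above the highest MT-F7 library, at 1.52 ± 0.232 and 0.939 ± 0.0152 CPM. The log2FC was -0.70 with an SE of 0.358. The MT-F7 values of SFRP5 were closer together than counting would give, with a coefficient of variation of 1.62% beside 20.7%.

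NOTUM (525682) was lower in MT-F7. It had 20, 27 and 38 counts (MC-F7) against 6, 10 and 13 (MT-F7), which is 1.26 ± 0.463 and 0.392 ± 0.157 CPM without overlap. The log2FC was -1.67 (SE 0.486), and leaving out 1 library at a time moved it between -2.0 and -1.36. WIF1 (533672) had 0, 0 and 0 counts (MC-F7) against 0, 4 and 1 (MT-F7), so it exceeded 3 counts in MT-F7 replicate 2 only, and no difference was detectable at this depth.

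Of the 10 genes, DKK1, DKK3, SFRP1, SFRP2 and FRZB were thus higher in every MT-F7 library than in any MC-F7 library, SFRP5 and NOTUM were lower, and DKK2, WIF1 and KREMEN1 overlapped. Of all 13001 tested genes, 19.9% were higher and 20.1% lower without overlap, but nothing can be read from the comparison of these shares, because the genes were picked with it in view. The filter on low counts was passed by 7 of the 10 genes. DKK1 passed it through MT-F7 only, and NOTUM, with 6 counts in MT-F7 replicate 1, through MC-F7 only.

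Levels of different genes were compared after division by gene length, using the deposited TPM values rescaled to 1000000 in each library. In MC-F7 the order of mean levels was SFRP2 (90.0 ± 18.6 TPM), SFRP1 (82.7 ± 18.1 TPM) and DKK3 (24.1 ± 3.88 TPM). The ranges of SFRP2 and SFRP1 overlapped, although SFRP2 was the higher of them within each library. SFRP5 (0.968 ± 0.159 TPM), NOTUM (0.776 ± 0.262 TPM) and FRZB (0.768 ± 0.493 TPM) followed with overlapping values, and KREMEN1 was at 0.219 ± 0.0549 TPM. In MT-F7 the order was SFRP2 (428 ± 46.9 TPM), SFRP1 (143 ± 15.2 TPM), DKK3 (48.8 ± 6.66 TPM), FRZB (9.29 ± 2.43 TPM) and DKK1 (5.35 ± 2.03 TPM). The ranges of FRZB and DKK1 overlapped, although FRZB was the higher of them within each library, and those of the other neighbours in this list did not. SFRP5 (0.63 ± 0.031 TPM), NOTUM (0.255 ± 0.0928 TPM) and KREMEN1 (0.228 ± 0.0283 TPM) came after them, and the last 2 overlapped. In MT-F7 the mean level of SFRP2 was above that of 99.0% of the genes in the table, and that of DKK1 was above 63.1%.

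DKK1 therefore made up a small part of the transcripts of the 10 genes in the MT-F7 libraries. Antagonists outside the 10 genes are not part of the sums that follow. Among these were SHISA2 (126 ± 40.2 TPM) and IGFBP4 (107 ± 6.78 TPM) in MT-F7. The rescaled TPM of the 10 genes added up to 232, 211 and 156 in MC-F7 and to 654, 697 and 558 in MT-F7. DKK1 took 0.708%, 1.1% and 0.677% of this sum in MT-F7. Within each MT-F7 library there were between 61.3 and 99.7 times as many length-adjusted SFRP2 transcripts as DKK1 transcripts. SFRP1 and SFRP2 together took 86.4% ± 1.43 of the sum in MC-F7 and 89.9% ± 0.845 in MT-F7. Their balance differed, since the ratio of SFRP2 to SFRP1 was 1.11, 1.03 and 1.13 in the MC-F7 libraries against 2.89, 3.09 and 3.0 in the MT-F7 libraries. This ratio does not depend on how libraries were scaled. DKK3 took 12.2% ± 1.45 in MC-F7 and 7.68% ± 0.540 in MT-F7.

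**Figure D2:**
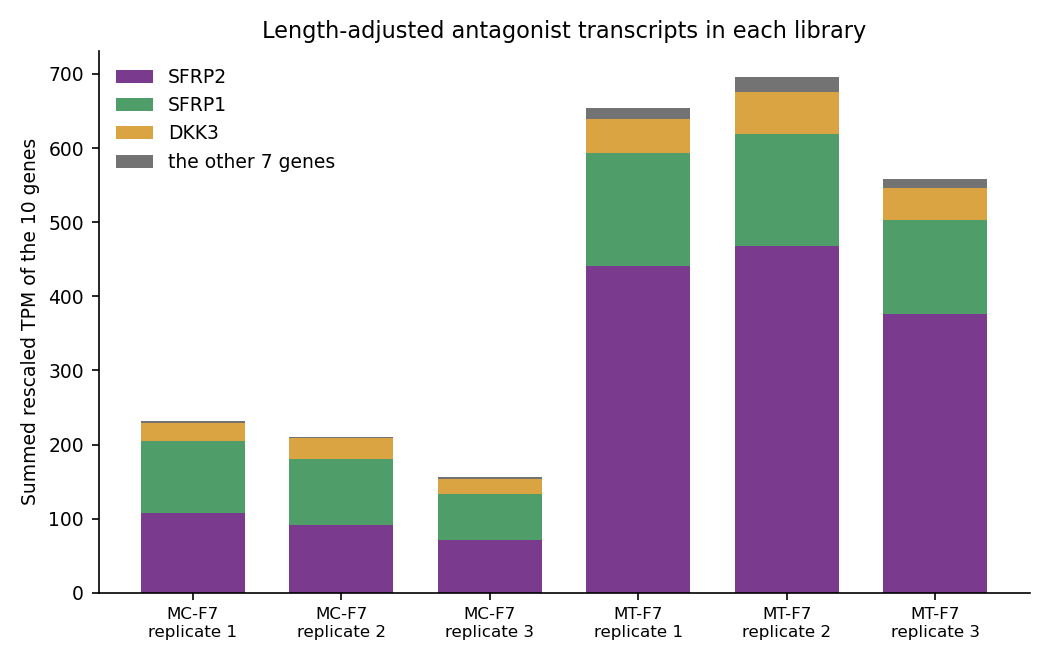
Stacked bars of the rescaled TPM of SFRP2, SFRP1, DKK3 and the other 7 genes in each library, 3 of MC-F7 and 3 of MT-F7. The MC-F7 bars reach 156 to 232 and the MT-F7 bars 558 to 697, with SFRP2 between 67.2% and 67.5% of each MT-F7 bar.

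SFRP genes and DKK3 are also expressed by many fibroblasts and mesenchymal cells, so fibroblast markers were examined beside them. The cells were grown on mouse fibroblasts, alive in MC-F7 and fixed in MT-F7. The study reported a higher rate of alignment to the bovine genome for MT-F7 than for MC-F7, and proposes that fixed feeders lowered contamination by feeder cells. It also proposes that some MT-F7 cells differentiated into feeder-like cells. All 14 markers of the list were tested. Of these, 4 rose in MT-F7 (COL3A1, PDGFRB, POSTN and FBLN1), TWIST2 fell, and 9 did not pass the test. This is 35.7% called, beside 23.2% of all tested genes. The summed level of the 14 markers ran from 310 to 417 CPM in MC-F7 and from 627 to 747 CPM in MT-F7, without overlap. None of the 14 was at 0 in every library. FBLN1, at 108 ± 21.0 CPM in MC-F7 and 327 ± 37.5 CPM in MT-F7, made up most of the difference between these sums. The part of this difference in the SFRP1, SFRP2, FRZB and DKK3 values was not tested. In a list of 10 genes of the anterior endoderm and head organizer, where DKK1 is expressed in embryos, none rose and 4 of the 6 tested genes fell (LHX1, FOXA2, EOMES and LEFTY2). Of all tested genes, 11.9% rose and 11.3% fell. LHX1, FOXA2 and LEFTY2 had under 10 counts in at least 1 MT-F7 library and passed the filter on low counts through MC-F7 only. The values of these genes could thus hardly have shown a rise. CER1, a defining gene of that tissue, was at 0 in all libraries. The summed level of that list overlapped between the groups, at 122 to 161 CPM in MC-F7 against 135 to 173 CPM in MT-F7, and most of it was OTX2, at 124 ± 20.0 and 149 ± 19.5 CPM, which did not pass.

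The likeness of other genes to DKK1 was measured as the root mean square difference between mean-centred log2(CPM + 0.5) profiles over the 6 libraries. Because DKK1 had 0 counts in MC-F7, its difference between the groups on this scale is set by the added 0.5 CPM and is smaller than the bound given above, so closeness does not mean an equal fold difference. The 5 closest of 12982 genes were DLX5 (0.14), CAPN6 (0.266), HMX1 (0.273), NR2F1 (0.286) and FGF10 (0.312). DLX5, a homeobox factor, had 78, 66 and 58 counts (MC-F7) against 1100, 1581 and 906 (MT-F7). HMX1, another homeobox factor, had 0, 1 and 3 counts (MC-F7) against 113, 225 and 149 (MT-F7), and no MC-F7 library exceeded 3 counts, as for DKK1. The other 3 genes had mean levels of 2.25, 1.52 and 0.78 CPM in MC-F7 against 58.6, 25.0 and 13.9 CPM in MT-F7, in the order CAPN6, NR2F1 and FGF10.

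**Figure D3:**
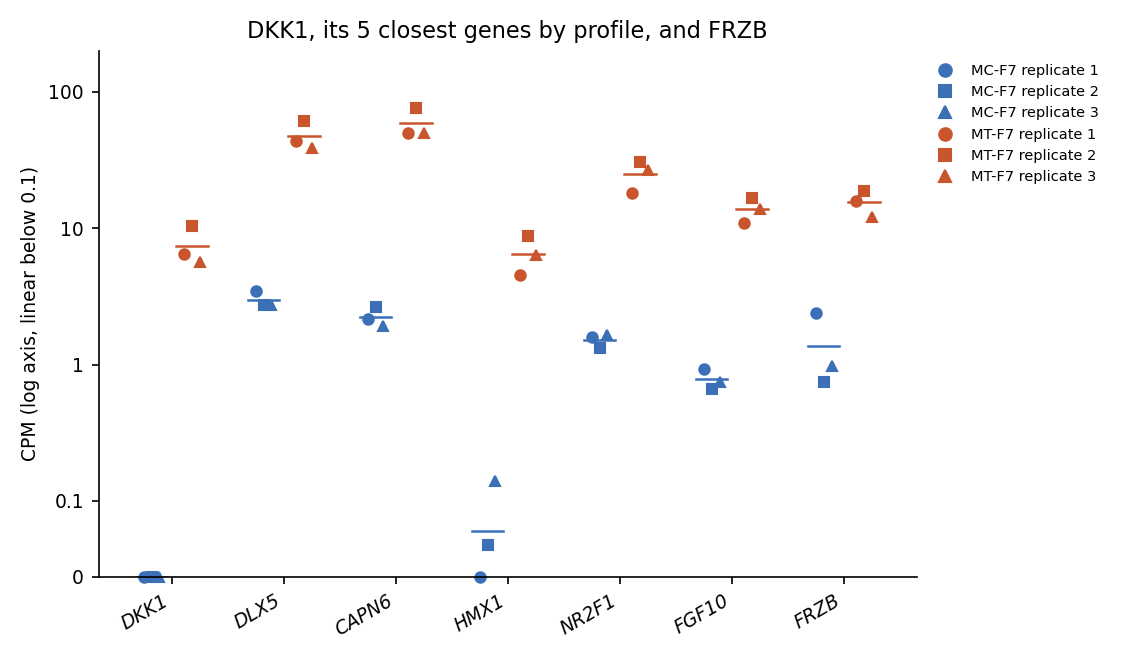
CPM in each library for DKK1, the 5 genes closest to it by profile and FRZB, on a log axis that is linear below 0.1 CPM, with blue marks for MC-F7, orange marks for MT-F7 and a short line at each group mean. DKK1 is at 0 in all MC-F7 libraries, where DLX5 has a mean of 2.97 CPM and FRZB one of 1.37 CPM, and the MT-F7 values of each gene lie above its MC-F7 values.

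The other genes of the Wnt pathway had not been used to choose the antagonists, but their lists were also written with earlier results of these data known. MT-F7 was compared with MC-F7 for them by edgeR's quasi-likelihood test with Benjamini-Hochberg adjustment over all 13001 tested genes. The p values do not account for that choice, and the share of pathway genes called is a description. The 2 cultures differed widely, since 23.2% of all tested genes had an adjusted p under 0.05, 1553 of them (11.9%) higher and 1463 (11.3%) lower in MT-F7. Without MC-F7 replicate 2 this count was 1914 in place of 3016. Of 89 pathway genes listed, 87 were in the count table and 64 were tested. Of these 64, 16 rose and 7 fell in MT-F7 and 41 did not pass, which is 35.9% called. Their median log2 fold change was 0.15, beside -0.0026 over all tested genes.

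The co-receptors that DKK1 binds were present in both cultures. LRP5 was at 34.5 ± 2.64 CPM in MC-F7 and 33.2 ± 6.96 CPM in MT-F7, with a log2FC of -0.055 (SE 0.174, adjusted p = 0.85). LRP6 was at 14.6 ± 4.81 and 13.0 ± 2.92 CPM (log2FC -0.17, SE 0.242, adjusted p = 0.67). The groups overlapped for both, and the sign of both log2 fold changes turned in at least 1 fit that left out a library. KREMEN2, the other Dickkopf receptor, had 5, 1 and 2 counts (MC-F7) against 0, 3 and 4 (MT-F7) and was too low to be tested.

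Among the receptors, 3 Frizzled genes rose and 2 fell, of 15 tested receptors and co-receptors. FZD5 rose from 3.78 ± 0.338 to 12.3 ± 1.05 CPM, with a log2FC of 1.70 (SE 0.196, adjusted p = 5.4e-05). FZD8 rose from 6.76 ± 0.725 to 19.7 ± 1.70 CPM and FZD1 from 15.1 ± 2.14 to 31.5 ± 1.87 CPM, with log2FC values of 1.54 and 1.06 (adjusted p = 5.3e-05 and 0.00055). FZD6 and FZD10 fell, with log2FC values of -1.22 and -1.19 (adjusted p = 0.002 and 0.00037). None of these 5 had overlapping groups.

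Wnt ligands were mostly low, and 5 of 19 could be tested. WNT5B, a ligand that mainly acts without beta-catenin, had 134, 159 and 109 counts (MC-F7) against 699, 654 and 770 (MT-F7). It rose with a log2FC of 2.28 (SE 0.185, adjusted p = 4e-06). WNT7B fell from 4.89 ± 0.0689 to 2.10 ± 0.399 CPM (log2FC -1.21, SE 0.255, adjusted p = 0.0043). WLS, which carries Wnt proteins to the cell surface, rose from 1.41 ± 0.377 to 8.35 ± 0.495 CPM (log2FC 2.56, SE 0.258, adjusted p = 2e-05).

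R-spondins are secreted proteins that strengthen Wnt signaling through LGR receptors. RSPO3 rose with a log2FC of 1.56 (SE 0.315, adjusted p = 0.0034), from 22, 33 and 30 counts in MC-F7 to 98, 115 and 64 in MT-F7. LGR4 rose from 53.0 ± 10.1 to 121 ± 15.2 CPM (log2FC 1.2, SE 0.173, adjusted p = 0.00032). LGR5 rose from 8, 4 and 4 counts to 43, 42 and 58 counts (log2FC 3.01, SE 0.469, adjusted p = 0.00057), and it passed the filter on low counts through MT-F7 only. LGR6 fell from 36, 46 and 47 counts to 10, 15 and 15 counts, with a log2FC of -1.81 (SE 0.391, adjusted p = 0.0051). Of 8 tested genes of this group 4 did not pass.

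**Figure D4:**
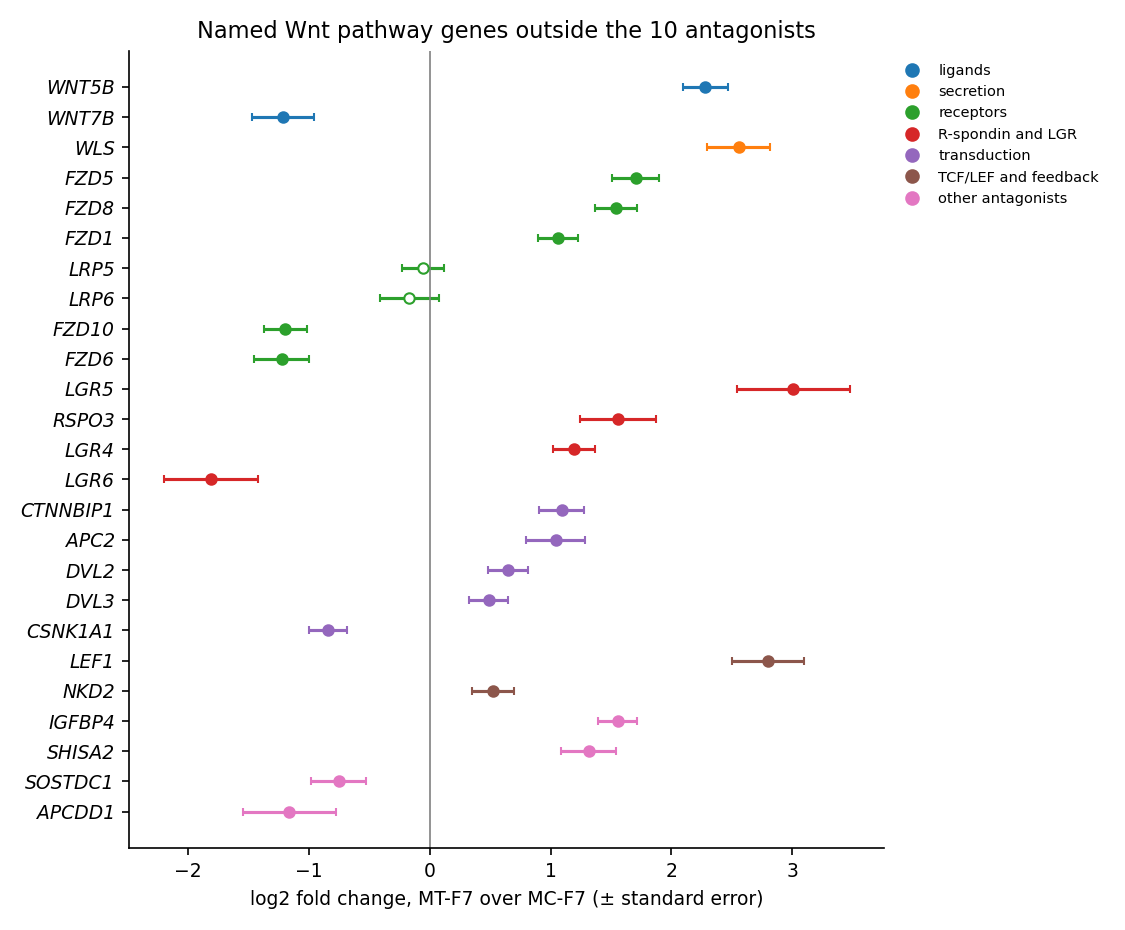
Log2 fold change of MT-F7 over MC-F7 with its standard error for the named Wnt pathway genes outside the 10 antagonists, colored by role, with filled marks for an adjusted p under 0.05 and open marks for LRP5 and LRP6, which did not pass. LGR5 (3.01), LEF1 (2.80) and WLS (2.56) lie farthest to the right and LGR6 (-1.81) farthest to the left. LGR5 passed the filter on low counts through MT-F7 only.

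Inside the cell, LEF1, a TCF/LEF factor, rose from 20, 15 and 20 counts in MC-F7 to 153, 161 and 110 in MT-F7 (log2FC 2.80, SE 0.297, adjusted p = 3e-05). NKD2, a feedback inhibitor that binds Dishevelled, had a log2FC of 0.52 (adjusted p = 0.041), but among the 6 fits without 1 library it passed in the one without MC-F7 replicate 3 only. The other 8 tested TCF/LEF factors and feedback targets did not pass. Feedback targets chosen after their values were seen are AXIN2, RNF43 and ZNRF3, whose log2FC was -0.047 (SE 0.264), 0.0090 (SE 0.374) and -0.072 (SE 0.305), respectively (adjusted p = 0.92, 0.99 and 0.89). AXIN2 was taken from the list of signal transduction genes, and RNF43 and ZNRF3 from that of R-spondins and LGR receptors. In these lists 4 and 3 genes rose, respectively, LGR5 among them, and 1 fell in each. AXIN2, RNF43 and ZNRF3 therefore do not stand for Wnt feedback as a whole. Of 14 genes of signal transduction and the destruction complex, 4 rose and 1 fell. CTNNBIP1, which keeps beta-catenin from TCF factors, rose from 28.1 ± 7.11 to 59.9 ± 2.98 CPM (log2FC 1.09, SE 0.186, adjusted p = 0.0011). APC2 rose with a log2FC of 1.04 (adjusted p = 0.008), and the kinase gene CSNK1A1 fell with a log2FC of -0.84 (adjusted p = 0.002). The Dishevelled genes DVL2 and DVL3 rose by 0.65 and 0.49 on the log2 scale (adjusted p = 0.013 and 0.046). DVL2 did not pass without MT-F7 replicate 1 (adjusted p = 0.056), and DVL3 passed only in the fit without MC-F7 replicate 3 among those that left out 1 library.

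Extracellular Wnt antagonists outside the 10 genes went in both directions, with 2 of 10 tested genes rising and 2 falling. IGFBP4, an IGF-binding protein that can also block Frizzled and LRP6, rose from 60.3 ± 8.62 to 177 ± 14.1 CPM (log2FC 1.55, SE 0.158, adjusted p = 2.1e-05). SHISA2, which holds Frizzled and FGF receptors inside the cell, rose from 95.3 ± 20.8 to 237 ± 66.8 CPM (log2FC 1.32, SE 0.227, adjusted p = 0.0012). SOSTDC1, which binds LRP6, fell with a log2FC of -0.75 (adjusted p = 0.03), and APCDD1 with one of -1.16 (adjusted p = 0.045). Both lost their call in 4 of the 6 fits that left out 1 library. These were the fits without MC-F7 replicates 1 and 2 and MT-F7 replicates 1 and 3 for SOSTDC1, and those without MC-F7 replicates 2 and 3 and MT-F7 replicates 1 and 2 for APCDD1, whose groups overlapped. The highest adjusted p among these fits was 0.11 for SOSTDC1 and 0.15 for APCDD1. DKK4 and CER1 had 0 counts in all 6 libraries.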

How the data were processed

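Total RNA of F7 cells was sequenced as 3 libraries each of MC-F7 and MT-F7. Per the labels and the methods, the authors aligned paired-end reads to an Ensembl Bos taurus genome with HISAT2 2.0.5 and deposited raw counts per gene from featureCounts 1.5.0-p3. The genome build is not given in the sources used here, and no coordinates are printed. The authors also deposited TPM values, which were scaled alike in all libraries for 9639 of 9640 genes with at least 50 counts in each (ratio to the count equal within 0.001), so library size was still in them. For comparing levels between genes they were rescaled to 1000000 per library, but the limma alternatives used them as deposited. Symbols came from RefSeq by Entrez identifier for 19074 of 19163 genes.

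Low genes were removed with filterByExpr (at least 10 counts in enough libraries, 15 in total) in edgeR 4.0.16 under R 4.3.3, and the rest normalized by TMM and compared by the two-sided quasi-likelihood test, with a standard error taken from the log2 fold change and its F value. Genes with an adjusted p under 0.05 were called. The genes and lists were chosen with earlier results of these data known. Named pathway genes were LRP5, LRP6, KREMEN2 and the up to 5 largest changes past the threshold in each list, besides those marked in the text. Cell type markers were named for their call, after their values were seen. Alternatives used DESeq2 1.42.0, limma 3.58.1 and other filters and factors. The tests were also run on simulated counts with the same dispersion for all genes. Its outcome is not given here, and nothing about the calls is drawn from it.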

Additional observations from a re-analysis of the deposited data

How the results depend on the processing

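The number of antagonists higher in MT-F7 without overlap, which can change only with the libraries or values used, was between 5 and 6 when 1 library was left out. The sixth gene was WIF1 without MT-F7 replicate 1 and DKK2 without replicate 2, and neither exceeded 4 counts in any library. Leaving out 1 library at a time moved the number of pathway genes called between 18 and 24 and that of all genes between 1914 and 3093, with the lowest count without MC-F7 replicate 2. The deposited TPM values tested with limma on genes with a mean of at least 1 gave 1383 genes (938 higher, 445 lower) and 12 pathway genes (10 higher, 2 lower), with fewer genes tested. On log2(TPM + 1) and log2(TPM + 0.1) without that filter the split of all genes was 1540 higher and 808 lower, and 1569 higher and 834 lower. All these limma fits used the deposited TPM values without rescaling, so library size was still in them. The MT-F7 libraries held 24271208 to 24933430 counts and the MC-F7 libraries 21958386 to 23414319. The part of this difference in the split was not tested. With the replicate number as a replicate block, 4674 genes and 35 pathway genes passed. The deviations of same-numbered libraries correlated at 0.134, 0.0445 and 0.417 across genes, and replicates 1 and 2 of MC-F7 correlated best with another number, so the numbers were not taken as pairs. LRP5 turned to 0.055 on log2(TPM + 0.1) and to 0.035 on log2(TPM + 1), with and without the filter, where library size was left in. In the edgeR fits it ran from -0.24 to 0.044 when 1 library was left out, as did LRP6 from -0.38 to 0.11. On log2(TPM + 1) the log2 fold changes of FRZB, SFRP5 and NOTUM shrank to 1.15, -0.063 and -0.11, since the pseudocount is large beside their values. Low pathway genes shrank likewise but stayed called, with LGR5 at 0.14, RSPO3 at 0.25, WLS at 0.43, LEF1 at 0.49 and WNT5B at 0.94. Of 488 comparisons with 16 alternatives for 32 single values, 446 kept their direction and call or stayed within the replicate spread, 10 moved beyond it, 25 lost the call and 7 turned direction. DKK2, WIF1 and KREMEN1 were below the depth needed for a test.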
